A study of Mus musculus with 8 samples.

Results

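The interleukin-1 (IL-1) family genes described here are 10 genes that encode secreted ligands, an antagonist, receptors and binding proteins: Il1a, Il1b, Il1rn, Il1r1, Il1r2, Il1rap, Il18, Il18bp, Il33 and Il1rl1. They were chosen by symbol, and each had 1 row in the deposited table, which holds 34586 symbols. The tissue was mouse cecal tumor of the gastrointestinal stromal tumor (GIST) type, a sarcoma related to the pacemaker cells of the gut wall. All 8 tumors came from C57BL/6 mice of one genotype, Kit V558Delta/+, Etv1 flox/flox and Rosa26 CreERT2/CreERT2. Kit V558Delta is the mutant allele that drives the tumors, and the flox alleles allow the transcription factor gene Etv1 to be cut out. The Cre recombinase, which tamoxifen activates, is expressed from the Rosa26 locus, which is active in nearly all cell types, so its action need not be limited to tumor cells. A tamoxifen group of 4 libraries was set against a vehicle group of 4 libraries. The labels state no tamoxifen dose, time after treatment or age.

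IL-1α and IL-1β, encoded by Il1a and Il1b, bind the receptor encoded by Il1r1, which then recruits the accessory protein encoded by Il1rap and signals through MyD88 to NF-kB. Il1rn encodes a receptor antagonist that occupies Il1r1 without signalling, and Il1r2 a decoy receptor that binds IL-1 and lacks a signalling domain. IL-18 is neutralized by the binding protein encoded by Il18bp. IL-33, an alarm signal of barrier and stromal cells, acts through the receptor encoded by Il1rl1, which also uses the accessory protein of Il1rap. In the gut wall these ligands come mainly from myeloid cells (Il1b), epithelium (Il18) and stroma (Il33).

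The results turn on Il1rn and Il1r2, so the sequences around their start sites are shown. They are RefSeq windows on GRCm38.p6 with 250 bases before and 50 after a start site, printed 5′ to 3′, and are not coordinates of the deposited table, which is on mm9. All 10 genes matched an entry, with 15 windows in all. Il1rn has 3 of these windows, of which the downstream pair overlap, and it is known to give a secreted antagonist and intracellular forms from different first exons, which gene-level values do not separate. Capitals mark a match to any of 3 motifs searched on both strands: ETS (CCGGAA or AGGAAG), AP-1 (TGANTCA) and the NF-kB site by its usual degenerate consensus.

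Il1rn, upstream start, chr2:24336610-24336909, plus strand: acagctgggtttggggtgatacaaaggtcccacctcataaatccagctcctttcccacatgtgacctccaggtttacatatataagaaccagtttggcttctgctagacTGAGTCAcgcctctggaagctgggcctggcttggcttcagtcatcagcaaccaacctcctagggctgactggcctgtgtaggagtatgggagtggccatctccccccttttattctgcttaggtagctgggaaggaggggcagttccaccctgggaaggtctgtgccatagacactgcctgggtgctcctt
Il1rn, downstream start, chr2:24345041-24345340, plus strand: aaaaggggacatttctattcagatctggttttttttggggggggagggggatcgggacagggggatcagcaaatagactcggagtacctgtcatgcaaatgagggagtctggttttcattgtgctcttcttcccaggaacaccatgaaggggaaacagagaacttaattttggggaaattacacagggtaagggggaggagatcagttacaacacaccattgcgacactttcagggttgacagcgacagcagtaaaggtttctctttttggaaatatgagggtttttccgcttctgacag
Il1r2, chr1:40085843-40086142, plus strand: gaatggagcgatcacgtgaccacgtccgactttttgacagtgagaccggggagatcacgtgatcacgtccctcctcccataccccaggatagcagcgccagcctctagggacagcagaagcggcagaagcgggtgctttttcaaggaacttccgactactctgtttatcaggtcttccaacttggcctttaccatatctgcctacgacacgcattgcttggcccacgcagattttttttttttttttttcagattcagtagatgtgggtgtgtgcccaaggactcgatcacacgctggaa

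The upstream Il1rn window held 1 AP-1 match, which begins 141 bases before the start site, and no ETS or NF-kB match. The downstream Il1rn window and the Il1r2 window held no match to any of the 3. Among all 32851 RefSeq windows of this length, 7.81% held an AP-1 match, 45.2% an ETS match and 8.46% an NF-kB match. Of the 10 genes, 2 had an AP-1 match in at least 1 window (Il1rn and Il1a), 4 an ETS match (Il1a, Il18bp, Il1rap and Il33) and 1 an NF-kB match (Il1r1). Counted by window, as the shares above are, 2 of the 15 windows held an AP-1 match, 4 an ETS match and 1 an NF-kB match. These matches describe the letters in the windows only.

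Of the 10 genes, 2 rose after tamoxifen, none fell and 8 did not pass the threshold, an adjusted p under 0.05 in limma over all 15023 tested genes. The background share of tested genes called in either direction was 5.45%, with 2.38% called higher and 3.07% called lower after tamoxifen. The genes that rose were Il1rn and Il1r2, the antagonist and the decoy receptor, while both IL-1 agonists and the signalling receptor chains did not pass. The median change of the tested genes was 0.01 on the log2 scale. All 10 genes passed the filter for testing, a mean of at least 1 FPKM (fragments scaled by transcript length and library size), with Il1rl1 the lowest of them. Il1r2 and Il1rl1 reached it only through the tamoxifen tumors, since their vehicle means were 0.543 and 0.679 FPKM. The call of Il1r2 thus rests on a gene that its tamoxifen values admitted to testing. The labels do not say whether replicates are tumors of different mice, and the p-values therefore cover only the variation among these 8 tumors, which may be partly technical.

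**Figure D1:**
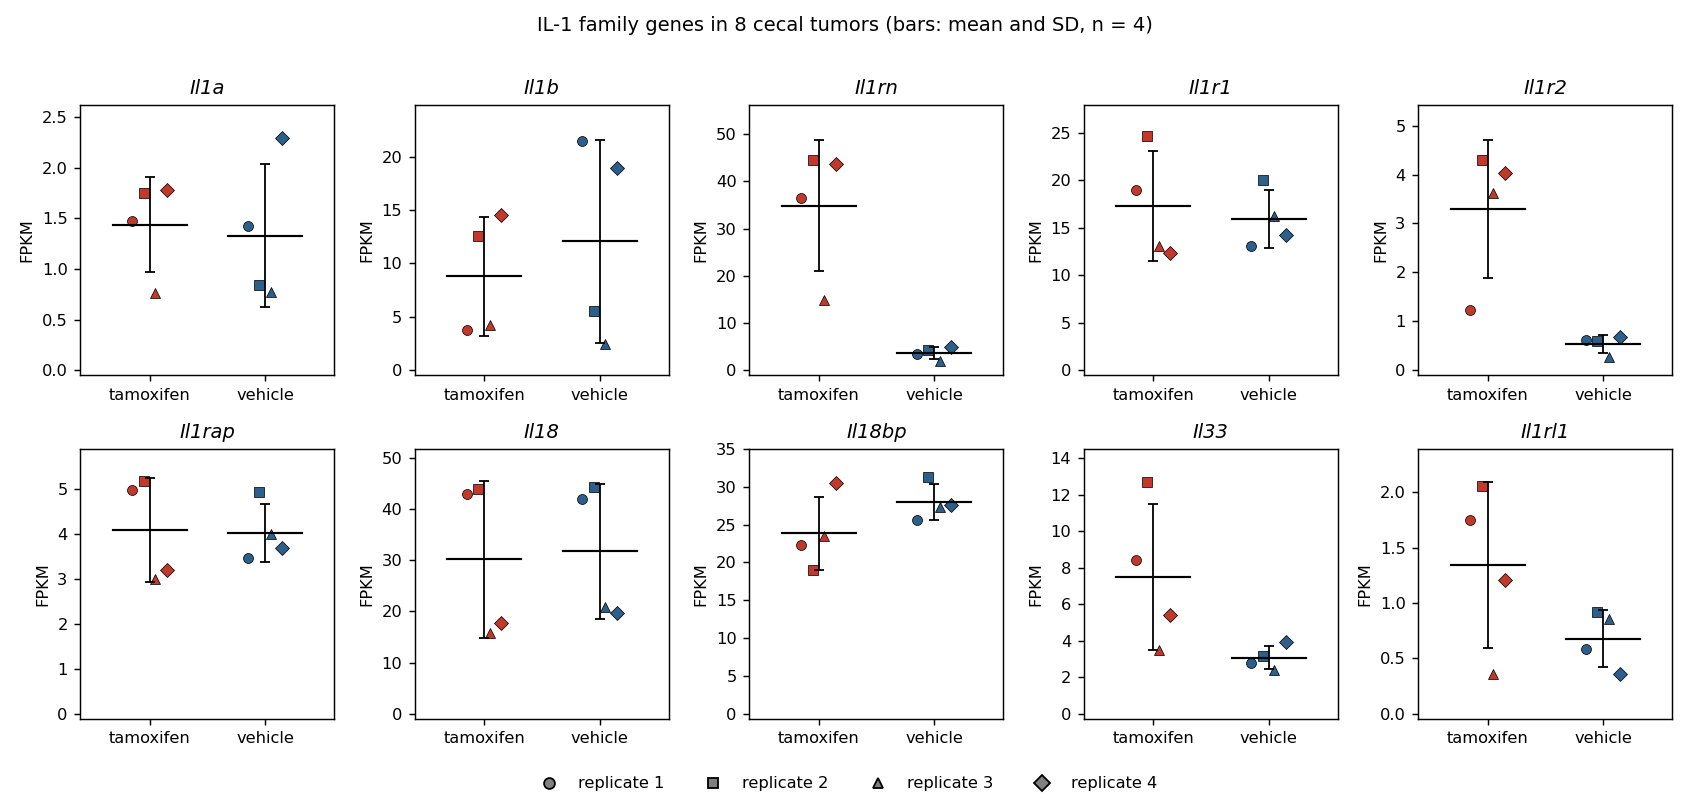
FPKM of each of the 10 IL-1 family genes in the tamoxifen and vehicle tumors, 1 point per library with its shape giving the replicate number, with the mean and SD of each group (n = 4). Il1rn and Il1r2 are the genes whose groups do not overlap, and Il18 splits the replicates within both groups.

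Il1rn (ENSMUSG00000026981, chromosome 2, 24192373 to 24207014 in mm9) was measured at 36.4, 44.5, 14.8 and 43.7 FPKM in tamoxifen replicates 1 to 4, against 3.41, 4.40, 1.91 and 4.94 FPKM in vehicle replicates 1 to 4. Every tamoxifen tumor was above every vehicle tumor, and tamoxifen replicate 3 was the lowest of its group. The group means were 34.8 ± 13.8 FPKM in tamoxifen tumors and 3.66 ± 1.33 FPKM in vehicle tumors (SD, n = 4 each), a 9.51-fold difference. On the scale of log2(FPKM + 1) the change was 2.88 (SE 0.37, 95% interval 2.03 to 3.72, limma adjusted p = 0.00782). The bounds deposited by the authors beside each value did not overlap in 12 of the 16 pairs of a tamoxifen and a vehicle tumor. The other 4 pairs were those of tamoxifen replicate 3, with bounds of 2.79 to 29.3 FPKM. The call held in all 18 alternative fits, with an adjusted p of 0.00184 to 0.0266.

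Il1r2 (ENSMUSG00000026073, chromosome 1, 40133073 to 40182064 in mm9) was measured at 1.23, 4.31, 3.62 and 4.03 FPKM in tamoxifen replicates 1 to 4, against 0.622, 0.594, 0.273 and 0.681 FPKM in vehicle replicates 1 to 4. The groups did not overlap, with tamoxifen replicate 1 close to the vehicle tumors and apart from the other tamoxifen tumors. The means were 3.30 ± 1.40 FPKM in tamoxifen tumors and 0.543 ± 0.183 FPKM in vehicle tumors (SD, n = 4 each), and the log2 change was 1.41 (SE 0.28, 95% interval 0.76 to 2.06, limma adjusted p = 0.0303). Among all tested genes, 15.1% had groups that did not overlap and 7.37% lay higher in every tamoxifen tumor, against these 2 of the 10 genes. The deposited bounds of Il1r2 were apart in 3 of 16 pairs, so single values are imprecise at this level. The call held without tamoxifen replicate 1 (adjusted p = 0.0106) and was lost when any 1 of the other 7 libraries was left out. The adjusted p then ran between 0.0559 (tamoxifen replicate 3 left out) and 0.0891 (vehicle replicate 3 left out). The call was also lost with the replicate number as a block (adjusted p = 0.0669) and with no filter on low values (0.0511), and a pseudocount of 0.1 FPKM gave a log2 change of 2.32 (adjusted p = 0.0241).

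Markers of some cell types known to make these proteins also differed between the groups. Over all tested genes, 2.38% were called higher, 3.07% were called lower, and 7600 of 15023 had a positive change. In bulk tumors, more cells of a type and more RNA per cell cannot be told apart. Neutrophils carry much Il1r2 and also make Il1rn, and 4 of 6 tested neutrophil markers rose (Ly6g, S100a8, S100a9 and Retnlg), with 8 more markers below the filter. The other 2 tested did not pass, Csf3r (log2 change 0.17, limma adjusted p = 0.858) and Mmp8 (1.03, limma adjusted p = 0.176). Csf3r measured 1.78 to 12.2 FPKM in tamoxifen tumors and 2.26 to 6.91 FPKM in vehicle tumors. The summed level of the 14 neutrophil markers ran from 182 to 479 FPKM in tamoxifen tumors and from 7.76 to 28.6 FPKM in vehicle tumors. Among tamoxifen tumors, replicate 3 was lowest in this sum and in Il1rn. Ly6g gave 170 of the 231 FPKM of tamoxifen replicate 1, the tumor lowest in Il1r2. The other 13 markers summed to 61.1, 285, 84.3 and 318 FPKM in tamoxifen replicates 1 to 4, against 25.1, 14.7, 7.20 and 14.7 FPKM in vehicle replicates 1 to 4. Replicate 1 was then the lowest tamoxifen tumor, and it was lowest of the 4 in 7 of the 14 markers, S100a8, S100a9 and Retnlg among them. Replicate 3 was lowest in the other 7, Ly6g, Csf3r and Camp among them, so the lowest tumor depends on the markers used. Of the granule genes made in immature neutrophils, Ngp measured 0.0807 to 4.21 FPKM, Ltf 0.276 to 3.20 FPKM and Camp 0.603 to 1.98 FPKM in tamoxifen tumors, against at most 0.130, 0.456 and 0.243 FPKM in vehicle tumors. Mpo and Elane measured at most 0.249 and 0.128 FPKM in tamoxifen tumors, and at most 0.0175 FPKM and 0 in vehicle tumors. Epithelial cells make the intracellular antagonist, and 1 of 14 tested intestinal epithelium markers rose, Krt18, and 10 of the 14 had a positive change, with a median of 0.77 on the log2 scale. The others were lower, among them Slc26a3 (log2 change -1.47, limma adjusted p = 0.0988) and Clca3 (-1.61, limma adjusted p = 0.140), without passing. The summed level of the 15 intestinal epithelium genes was 1926 to 3804 FPKM in tamoxifen tumors and 1306 to 2142 FPKM in vehicle tumors. Squamous epithelium markers were mostly below the filter, with 2 of 11 tested and Sprr2h called higher, and summed to 12.2 to 39.5 FPKM in tamoxifen tumors against 3.36 to 8.35 FPKM in vehicle tumors. Sprr1a and Sprr2h made up most of this sum in tamoxifen tumors, and the other 9 genes summed to 1.49 to 3.35 FPKM in tamoxifen tumors and 1.03 to 2.10 FPKM in vehicle tumors. Of the genes that define squamous basal cells, Krt5 measured 0.138 to 0.292 FPKM in tamoxifen tumors and 0.00963 to 0.0463 FPKM in vehicle tumors, without overlap. Krt14 measured 0.357 to 1.51 FPKM in tamoxifen tumors and 0.207 to 1.23 FPKM in vehicle tumors, and Trp63 was at most 0.0554 FPKM in every library. Other squamous genes below the filter went both ways. Krt15, Krt13 and Krt4 were higher in every tamoxifen tumor, at no more than 0.490 FPKM. Lor was lower in every tamoxifen tumor, at 0.175 to 0.480 FPKM against 0.717 to 1.44 FPKM in vehicle tumors. None of 15 macrophage and monocyte markers passed, and their sum was 845 to 2607 FPKM in tamoxifen tumors and 1011 to 1417 FPKM in vehicle tumors. The part of any of these cell types in the rise of Il1rn and Il1r2 was not tested.

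**Figure D2:**
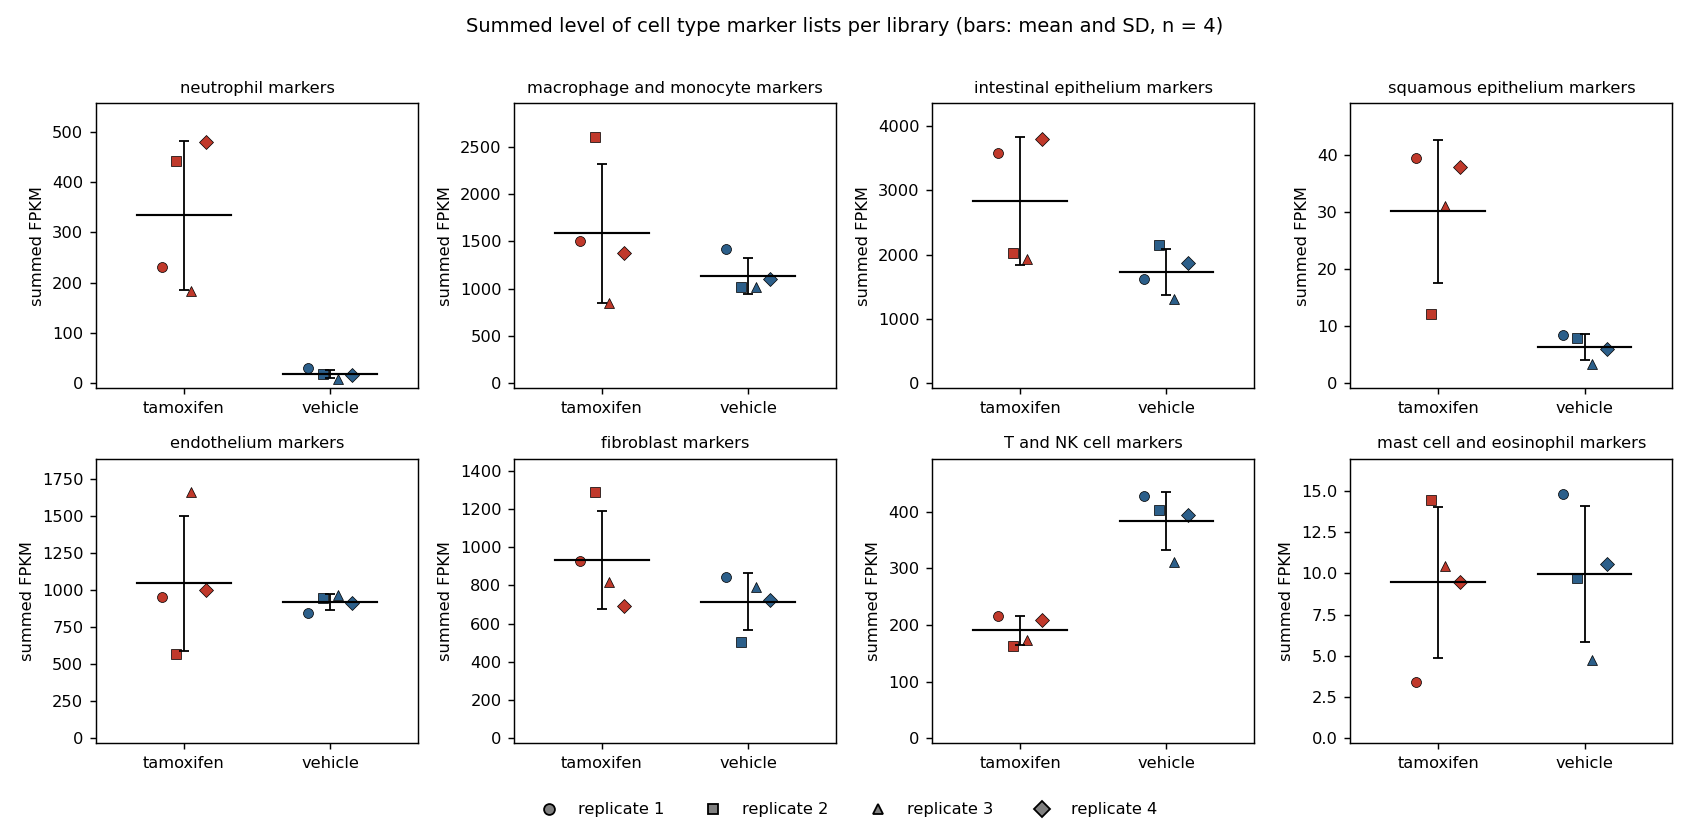
Summed FPKM of 8 lists of cell type markers per library, tamoxifen tumors left and vehicle tumors right, with the mean and SD of each group (n = 4) and the point shape giving the replicate number. The neutrophil sum lies between 182 and 479 FPKM in the tamoxifen tumors and between 7.76 and 28.6 FPKM in the vehicle tumors, while the macrophage sums overlap. A few genes set some sums: Lyve1 that of endothelium, and Sprr1a and Sprr2h that of squamous epithelium in tamoxifen tumors.

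The agonist Il1b (ENSMUSG00000027398, chromosome 2, 129190306 to 129201484 in mm9) was measured at 3.78, 12.6, 4.23 and 14.6 FPKM in tamoxifen replicates 1 to 4, against 21.5, 5.51, 2.42 and 18.9 FPKM in vehicle replicates 1 to 4. Each group held a pair of high and a pair of low tumors, and the groups overlapped throughout. The means were 8.79 ± 5.59 FPKM in tamoxifen tumors and 12.1 ± 9.51 FPKM in vehicle tumors (SD, n = 4 each), with a log2 change of -0.23 (95% interval -1.77 to 1.31, limma adjusted p = 0.873). The interval is the widest of the 10 genes. Il1a (ENSMUSG00000027399, chromosome 2, 129123106 to 129135708 in mm9), the agonist released from damaged cells, was measured at 1.47, 1.75, 0.760 and 1.78 FPKM in tamoxifen replicates 1 to 4, against 1.42, 0.838, 0.769 and 2.29 FPKM in vehicle replicates 1 to 4. Its lowest and highest values lay in tamoxifen replicate 3 and vehicle replicate 4, and the ranges overlapped. It averaged 1.44 ± 0.473 FPKM in tamoxifen tumors and 1.33 ± 0.706 FPKM in vehicle tumors (SD, n = 4 each; log2 change 0.09, 95% interval -0.48 to 0.66, limma adjusted p = 0.867).

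The balance of antagonist to agonists is set out as a ratio, with no test because its terms were chosen with results known. The FPKM of Il1rn was 6.93, 3.11, 2.97 and 2.67 times the sum of Il1a and Il1b in tamoxifen replicates 1 to 4, against 0.149, 0.692, 0.599 and 0.233 times in vehicle replicates 1 to 4. Antagonist transcript thus stood above that of the agonists in every tamoxifen tumor and below it in every vehicle tumor. The decoy Il1r2 stood at 0.0652, 0.174, 0.276 and 0.328 of the FPKM of Il1r1 in tamoxifen replicates 1 to 4, against 0.0475, 0.0297, 0.0169 and 0.0478 in vehicle replicates 1 to 4. Il1r1 transcript exceeded that of the decoy in all 8 tumors.

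**Figure D3:**
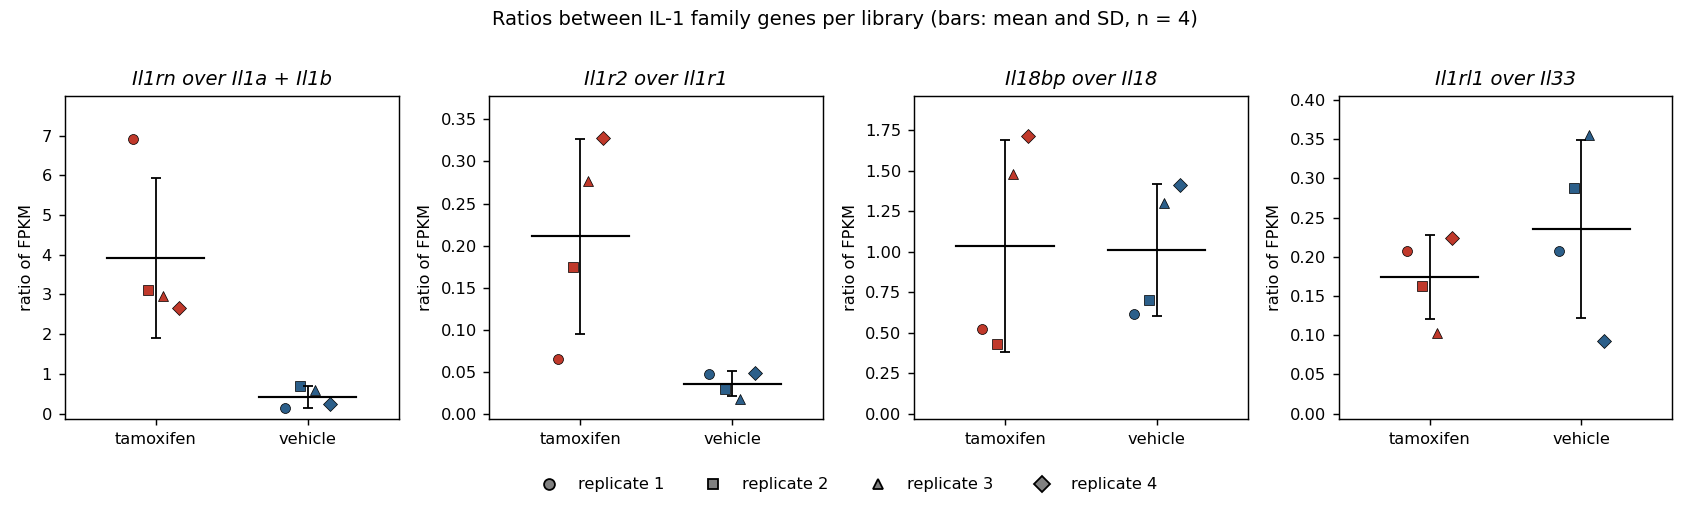
Ratios of FPKM between IL-1 family genes per library, tamoxifen tumors left and vehicle tumors right, with the mean and SD of each group (n = 4) and the point shape giving the replicate number. The ratio of Il1rn to Il1a plus Il1b lies between 2.67 and 6.93 in tamoxifen tumors and between 0.149 and 0.692 in vehicle tumors, and the groups overlap for Il18bp over Il18 and for Il1rl1 over Il33.

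The signalling receptor Il1r1 (ENSMUSG00000026072, chromosome 1, 40281925 to 40373043 in mm9) was measured at 18.9, 24.7, 13.1 and 12.3 FPKM in tamoxifen replicates 1 to 4, against 13.1, 20.0, 16.2 and 14.2 FPKM in vehicle replicates 1 to 4. The ranges overlapped, and the log2 change was 0.08 (95% interval -0.45 to 0.60, limma adjusted p = 0.877). Il1rap (ENSMUSG00000022514, chromosome 16, 26581790 to 26755588 in mm9), the shared accessory chain, averaged 4.09 ± 1.16 FPKM in tamoxifen tumors and 4.02 ± 0.638 FPKM in vehicle tumors (SD, n = 4 each; 95% interval of the log2 change -0.42 to 0.42, limma adjusted p = 1). Both receptor chains were therefore present in all 8 tumors, with no difference detectable beyond the spread of the replicates. The gene is known to give a membrane form and a soluble form, which share its single row.

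Il18 (ENSMUSG00000039217, chromosome 9, 50383378 to 50389942 in mm9), an epithelial and myeloid ligand, was measured at 42.9, 44.0, 15.8 and 17.8 FPKM in tamoxifen replicates 1 to 4, against 41.9, 44.4, 20.9 and 19.6 FPKM in vehicle replicates 1 to 4. Replicates 1 and 2 were high and replicates 3 and 4 low in both groups, and no tumor lay between 20.9 and 41.9 FPKM. The means were 30.1 ± 15.4 FPKM in tamoxifen tumors and 31.7 ± 13.3 FPKM in vehicle tumors (SD, n = 4 each; log2 change -0.12, 95% interval -1.08 to 0.84, limma adjusted p = 0.893). The binding protein gene Il18bp (ENSMUSG00000070427, chromosome 7, 109163593 to 109166669 in mm9) did not show this split. It was measured at 22.3, 18.9, 23.4 and 30.5 FPKM in tamoxifen replicates 1 to 4, against 25.7, 31.2, 27.3 and 27.6 FPKM in vehicle replicates 1 to 4. It is known to be induced by interferon gamma, and the ranges of the groups overlapped, with a log2 change of -0.24 (95% interval -0.58 to 0.10, limma adjusted p = 0.389). The ratio of Il18bp to Il18 had a median of 1.00 in both groups and ran from 0.431 to 1.71 in tamoxifen tumors and from 0.612 to 1.41 in vehicle tumors.

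Il33 (ENSMUSG00000024810, chromosome 19, 29999604 to 30035208 in mm9), the alarm signal of stromal, endothelial and epithelial cells, was measured at 8.43, 12.7, 3.47 and 5.39 FPKM in tamoxifen replicates 1 to 4, against 2.81, 3.18, 2.41 and 3.92 FPKM in vehicle replicates 1 to 4. All tamoxifen tumors but replicate 3 were above every vehicle tumor. The means were 7.50 ± 4.02 FPKM in tamoxifen tumors and 3.08 ± 0.642 FPKM in vehicle tumors (SD, n = 4 each), a log2 change of 0.95 (SE 0.32, 95% interval 0.21 to 1.68) that did not pass the threshold (limma adjusted p = 0.129). Without tamoxifen replicate 3 it passed (adjusted p = 0.0436), and in the other 17 alternative fits it did not.

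Its receptor gene Il1rl1 (ENSMUSG00000026069, chromosome 1, 40486415 to 40522260 in mm9), found on mast cells, regulatory T cells and type 2 lymphoid cells, was measured at 1.75, 2.06, 0.358 and 1.21 FPKM in tamoxifen replicates 1 to 4, against 0.583, 0.916, 0.855 and 0.361 FPKM in vehicle replicates 1 to 4. In tamoxifen tumors the order of replicates was the same for Il33 and Il1rl1, with replicate 2 highest and replicate 3 lowest, and in vehicle tumors it was not. Il1rl1 averaged 1.34 ± 0.747 FPKM in tamoxifen tumors and 0.679 ± 0.257 FPKM in vehicle tumors (SD, n = 4 each), with a log2 change of 0.43 (95% interval -0.20 to 1.06, limma adjusted p = 0.396). Il1rl1 was 0.103 to 0.224 of the FPKM of Il33 in tamoxifen tumors and 0.0921 to 0.355 in vehicle tumors.

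The summed level of 13 mast cell and eosinophil markers was 3.42 to 14.5 FPKM in tamoxifen tumors and 4.74 to 14.8 FPKM in vehicle tumors, with none of 2 tested genes called and 11 below the filter. The regulatory and type 2 lymphoid list had 1 of 5 tested genes called, Areg, which epithelium also expresses, and summed to 22.2 to 59.1 FPKM in tamoxifen tumors and 12.6 to 14.3 FPKM in vehicle tumors. Areg set this difference, since the other 11 genes summed to 8.28 to 13.7 FPKM in tamoxifen tumors and 10.7 to 11.8 FPKM in vehicle tumors. Foxp3, which defines regulatory T cells, stayed at or below 0.538 FPKM in tamoxifen tumors and 0.919 FPKM in vehicle tumors. Endothelium markers rose in 4 of 11 genes (Pecam1, Tek, Egfl7 and Emcn), and 10 of the 11 had a positive change, with a median of 0.68 on the log2 scale. The shares over all tested genes were 2.38% called higher, 3.07% called lower and 7600 of 15023 with a positive change. Their sums were 567 to 1663 FPKM in tamoxifen tumors and 844 to 969 FPKM in vehicle tumors. The lymphatic gene Lyve1 gave most of these sums, and the other 10 genes summed to 184 to 285 FPKM in tamoxifen tumors and 201 to 216 FPKM in vehicle tumors. Of 10 fibroblast markers none rose and 1 fell (Thy1), with sums of 691 to 1290 FPKM in tamoxifen tumors and 502 to 844 FPKM in vehicle tumors. Dcn measured 422, 531, 81.5 and 148 FPKM in tamoxifen replicates 1 to 4, against 59.7 to 90.2 FPKM in vehicle tumors. It was the largest term of the sum in tamoxifen replicates 1 and 2, and Col1a2 was in the other tumors. A positive change was seen in 7 of the 10, with a median of 0.20 on the log2 scale. Besides Thy1, Col1a1 (log2 change -0.55) and Col1a2 (-0.23) were lower, without passing. Pdgfra measured 9.83 to 37.8 FPKM in tamoxifen tumors and 4.18 to 6.42 FPKM in vehicle tumors, without passing (limma adjusted p = 0.0541). The fibroblast and macrophage sums were highest in tamoxifen replicate 2, where Il33 and Il1rl1 were also highest. The endothelium sum was lowest in that tumor, at 567 FPKM, and highest in tamoxifen replicate 3, at 1663 FPKM, where Il33 was lowest. Without Lyve1 the endothelium sum was lowest in tamoxifen replicate 1 (184 FPKM) and again highest in replicate 3 (285 FPKM). The part of any of these cells was not tested.

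**Figure D4:**
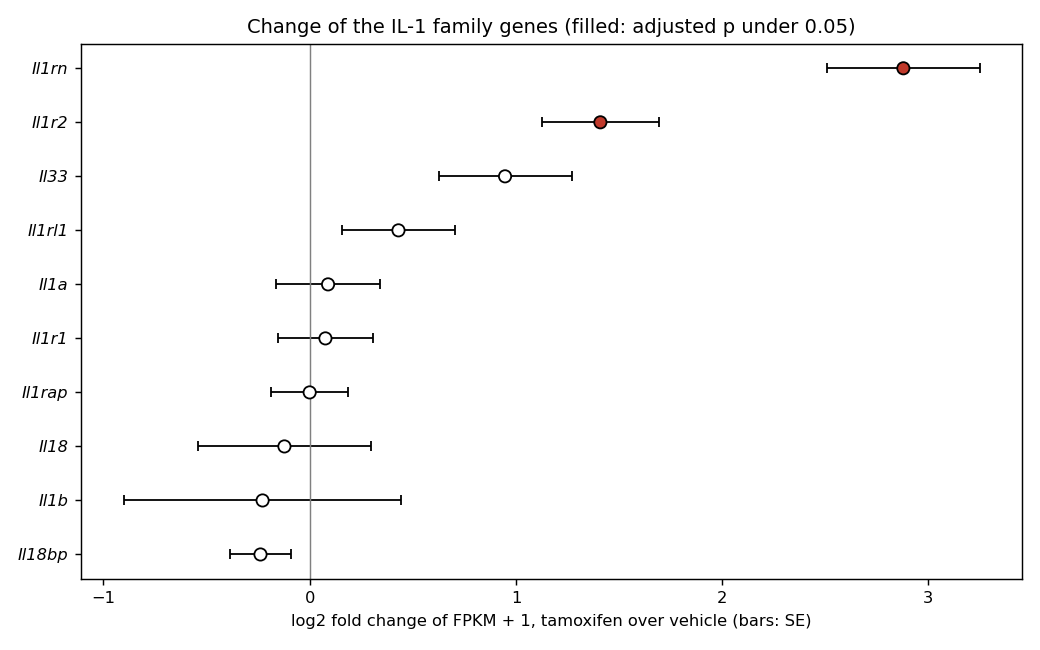
Log2 fold change of FPKM + 1, tamoxifen over vehicle, for the 10 IL-1 family genes, with bars for 1 SE and filled points for an adjusted p under 0.05. Il1rn (2.88) and Il1r2 (1.41) are filled, Il33 follows at 0.95, and 6 of the other genes lie between -0.24 and 0.09 while Il1rl1 is at 0.43.

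By level, Il1rn had the highest mean FPKM of the 10 genes in tamoxifen tumors, followed by Il18, Il18bp and Il1r1, with Il1b, Il33, Il1rap, Il1r2, Il1a and Il1rl1 below. Each gene's range overlapped that of the next in this order. In vehicle tumors Il18 was highest, followed by Il18bp, Il1r1, Il1b, Il1rap, Il1rn, Il33, Il1a, Il1rl1 and Il1r2. There the ranges of neighbours were apart only between Il18bp and Il1r1 and between Il33 and Il1a. Il1rn thus held place 1 of 10 in tamoxifen tumors and place 6 in vehicle tumors.

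The rest of the pathway was read from 4 lists, beside a background of 7600 of 15023 tested genes with a positive change. Of 11 other IL-1 family ligands and receptors, 4 reached the filter and none was called (median change 0.09, against 0.01 over all tested genes). The IL-36 receptor gene Il1rl2 averaged 1.67 ± 0.907 FPKM in tamoxifen tumors and 0.838 ± 0.213 FPKM in vehicle tumors (limma adjusted p = 0.336, n = 4 each). Il18rap, the accessory chain of the IL-18 receptor, averaged 3.76 ± 0.549 FPKM in tamoxifen tumors and 3.37 ± 1.12 FPKM in vehicle tumors (limma adjusted p = 0.676). Il18r1 and the inhibitory receptor gene Sigirr did not pass either.

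Of 25 genes for adaptors, kinases and switches between MyD88 and NF-kB, none was called, 12 had a positive change and the median was -0.01. The smallest p belonged to Nfkbie, an NF-kB inhibitor, at 6.06 ± 1.47 FPKM in tamoxifen tumors and 11.1 ± 2.22 FPKM in vehicle tumors (log2 change -0.79, SE 0.20, limma adjusted p = 0.0546, n = 4 each). Traf6, a ubiquitin ligase downstream of the receptor, averaged 10.3 ± 0.780 FPKM in tamoxifen tumors and 7.65 ± 0.890 FPKM in vehicle tumors (limma adjusted p = 0.0838).

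Of 19 tested genes of inflammasomes and cytokine processing, none was called and the median was 0.24. Casp1, the protease that matures IL-1β and IL-18, was measured at 55.9, 44.4, 27.5 and 48.0 FPKM in tamoxifen replicates 1 to 4, against 50.7, 47.1, 37.6 and 45.8 FPKM in vehicle replicates 1 to 4. Naip1, a sensor of bacterial secretion needles whose reads could be shared with its close copies, averaged 12.0 ± 4.09 FPKM in tamoxifen tumors and 5.05 ± 1.43 FPKM in vehicle tumors (limma adjusted p = 0.0672), and passed without tamoxifen replicate 3 (0.0192) and with libraries weighted by quality (0.0315). The channel gene Panx1 averaged 19.7 ± 4.22 FPKM in tamoxifen tumors and 29.7 ± 3.51 FPKM in vehicle tumors (limma adjusted p = 0.0798), and passed without tamoxifen replicate 4 (0.0441) and with the range of sample identifiers as a covariate (0.0286).

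Of 20 tested genes known to be induced by IL-1 in stroma and epithelium, 1 rose, 1 fell and 18 did not pass, with a median of 0.26. Over all tested genes 2.38% were called higher and 3.07% lower, so 1 call in each direction does not set this list apart. Cxcl5, an epithelial and stromal chemokine that attracts neutrophils, was measured at 5.88, 14.8, 4.69 and 13.5 FPKM in tamoxifen replicates 1 to 4, against 1.93, 1.06, 0.492 and 0.241 FPKM in vehicle replicates 1 to 4. The groups did not overlap, and the log2 change was 2.41 (SE 0.40, limma adjusted p = 0.0163). Icam1, a leukocyte adhesion molecule that interferon gamma also induces, was measured at 16.1, 29.3, 26.0 and 24.4 FPKM in tamoxifen replicates 1 to 4, against 56.8, 46.7, 49.7 and 69.8 FPKM in vehicle replicates 1 to 4 (log2 change -1.20, SE 0.20, limma adjusted p = 0.0170). The 2 called targets moved in opposite directions. Cxcl5 lost its call without vehicle replicates 3 and 4 (adjusted p = 0.0550 and 0.0512), and Icam1 without vehicle replicate 4 (0.0512) and with scaling to the same total (0.0692). The replicate block ended both calls (0.0525 for Cxcl5 and 0.0588 for Icam1). Lymphoid and dendritic markers moved with Icam1: 10 of 16 T and NK cell markers fell, with sums of 163 to 215 FPKM in tamoxifen tumors and 311 to 428 FPKM in vehicle tumors, and 4 of 8 dendritic cell markers fell (sums of 14.6 to 22.1 FPKM in tamoxifen tumors and 39.4 to 58.6 FPKM in vehicle tumors). Their part in the fall of Icam1, and that of the neutrophil markers in the rise of Cxcl5, was not tested.

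The genes with the most similar profiles to the 3 members of smallest p were found by the root-mean-square distance between standardised log2 levels over the 8 libraries, a description in which all genes share the same libraries. For Il1rn they were Gsta3 (distance 0.0876), Nhsl1 (0.115) and the cystine transporter gene Slc7a11 (0.142). Gsta3, a glutathione transferase gene, averaged 17.3 ± 5.31 FPKM in tamoxifen tumors and 4.05 ± 0.906 FPKM in vehicle tumors (SD, n = 4 each). For Il1r2 they were Gpr56 (0.166), Parvb (0.183) and the Wnt receptor gene Fzd1 (0.185). For Il33 they were the neuropeptide gene Nts (0.140), the lysophosphatidic acid receptor gene Lpar1 (0.145) and Fabp5 (0.194). Lpar1 averaged 8.30 ± 4.30 FPKM in tamoxifen tumors and 2.97 ± 0.634 FPKM in vehicle tumors (SD, n = 4 each).

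Across the series, each library had 14176 to 14841 symbols at 1 FPKM or more. Absolute depth is unknown, and steps between low FPKM values gave depths of 0.815 to 1.17 relative to vehicle replicate 1. Etv1, the floxed gene, averaged 25.8 FPKM in tamoxifen tumors and 41.2 FPKM in vehicle tumors without passing the threshold (limma adjusted p = 0.130), and its value covers the whole gene, not the floxed part alone. Tamoxifen replicate 1, with 34.9 FPKM of Etv1, lay within the vehicle range of 34.6 to 51.1 FPKM. It was also the tamoxifen tumor lowest in Il1r2, and without it the log2 change of Il1rn was 2.82 (limma adjusted p = 0.0217). Tamoxifen replicate 3, with 31.4 FPKM of Etv1, measured 3.62 FPKM of Il1r2. A link between the levels of Etv1 and Il1r2 was not tested. Kit and the chloride channel gene Ano1, which define GIST, were at 386 FPKM or more and 372 FPKM or more in every library, and 1 of 10 tumor lineage markers fell (Edn3), with sums of 1202 to 1732 FPKM in tamoxifen tumors and 1684 to 2422 FPKM in vehicle tumors. Only 1 of the 10 had a positive change, with a median of -0.49 on the log2 scale. Over all tested genes 3.07% were called lower and 7600 of 15023 had a positive change. Kit averaged 447 FPKM in tamoxifen tumors and 760 FPKM in vehicle tumors without passing (limma adjusted p = 0.0674). No smooth muscle marker (7 tested) or B and plasma cell marker (8 tested) was called. The smooth muscle sums were 330 to 424 FPKM in tamoxifen tumors and 204 to 396 FPKM in vehicle tumors, and the B and plasma cell sums 316 to 1030 FPKM in tamoxifen tumors and 424 to 1520 FPKM in vehicle tumors.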

How the data were processed

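Per the labels' protocols, total RNA was extracted from explanted cecal tumors and libraries were made with Illumina protocols. The deposited values are FPKM per gene and library with confidence bounds, made by the authors in the layout of a Cuffdiff table, per the file headers. STAR 2.3, Cufflinks and Cuffdiff and the build mm9 are named in the submitters' processing notes. What stays unknown is the annotation release, scaling between libraries, strandedness, the treatment of multiply mapped reads and the level of the bounds, each not given in the sources used here for these files. The 8 FPKM columns carry identifiers that the sample descriptions also hold, and 0 columns were left unmapped.

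Rows were summed per symbol, and 178 failed estimates listed at 0 FPKM were treated as missing. None of these was in an IL-1 family gene. Genes with a mean of at least 1 FPKM and 2 estimates in each group (15023) were fitted on log2(FPKM + 1) by limma 3.58.1 under R 4.3.3 (eBayes with trend, 2-sided). This scale understates changes of low genes. The filter used the mean over all libraries, so a gene could reach it through a single group. Among called list genes, Retnlg, Sprr2h and Cxcl5 did so through the tamoxifen tumors, with vehicle means of 0.641, 0.582 and 0.931 FPKM. Xcr1, Cd209a, Ncr1, Prf1 and Eomes did so through the vehicle tumors. The Benjamini-Hochberg adjustment ran over all tested genes. The procedure was tested on simulated data. Alternatives were other pseudocounts, filters and scalings, quality weights, a replicate block, an identifier covariate and leaving out each library. The IL-1 family genes, the 17 gene lists and the alternatives were chosen with earlier results of these data known. The rule for names took all 10 genes, list members past the threshold or else the 2 of smallest p, and 3 nearest profiles for 3 genes, and other names are given with the reason. Marker genes named for their level or for setting a list's sum were singled out after their values were seen. Loci are on mm9, with starts counted from 1. Il1a, Il1b, Il1r2 and Il1rap each share a locus with a predicted gene below 1 FPKM, named Gm14023, Gm14047, Gm16894 and Gm20319 in the table, at 0.268, 0.126, 0.108 and 0.114 FPKM on average. Reads of such pairs could be split between them.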

Additional observations from a re-analysis of the deposited data

Results flagged for a closer look

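Il1r2 in tamoxifen replicate 1 measured 1.23 FPKM, far below the 3.62 to 4.31 FPKM of the other 3 tamoxifen tumors. Il18rap in vehicle replicate 2 measured 5.04 FPKM, far above the other vehicle tumors. Both were single samples set apart by more than Dixon's 95% critical value on the log2 scale (gap over range 0.840 and 0.888), among 36 groups looked at, and chance sets apart about 1 in 20 groups.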

How the results depend on the processing

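The count of genes past the threshold was 819 and became 534 with a mean of at least 5 FPKM, 229 with scaling to the same total, 252 with the replicate block and 268 to 856 when 1 library was left out. Of the 10 IL-1 family genes, 2 passed, and 1 passed (Il1rn) with no filter, with a mean of at least 5 FPKM, where Il1r2 is not tested, and with the replicate block. Leaving out 1 library gave 1 to 2, and without tamoxifen replicate 3 the 2 were Il1rn and Il33. Changes near 0 turned sign: Il1b to 0.16 with quality weights, Il1rap to 0.044 with scaling to the same total, 0.080 with quality weights and 0.094 with the identifier range as a covariate, and Il18 to 0.12 and 0.15 with the last 2 of these. Leaving out 1 library gave -0.028 to 0.27 for Il1a, -0.74 to 0.16 for Il1b, -0.11 to 0.21 for Il1r1, -0.10 to 0.11 for Il1rap and -0.35 to 0.12 for Il18. None of these 5 passed in any fit. The cause was not tested. The identifier covariate was added after seeing the data. The labels do not say whether replicate numbers pair the samples. Correlations of deviations ran from -0.16 to 0.14 for equal numbers and from -0.15 to 0.15 for unequal numbers. They showed no pairing but cannot settle it. The replicate block ended the calls of Il1r2, Cxcl5 and Icam1 and of no other IL-1 family or pathway gene named. Absolute depth is unknown, and low genes such as Il1r2 and Il1rl1 have wide deposited bounds.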

Other observations

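The IL-36 ligand genes, epithelial relatives of IL-1, lay below the filter on level and were singled out after their values were seen. Il1f9, which encodes IL-36 gamma, measured 1.09, 1.94, 0.515 and 2.43 FPKM in tamoxifen replicates 1 to 4, against 0.104, 0.238, 0.0350 and 0.142 FPKM in vehicle replicates 1 to 4. Il1f6, which encodes IL-36 alpha, measured 0.181 to 1.45 FPKM in tamoxifen tumors and 0 to 0.0649 FPKM in vehicle tumors. Il1f8, which encodes IL-36 beta, measured 0.195 to 0.807 FPKM in tamoxifen tumors and 0.0391 to 0.0960 FPKM in vehicle tumors. For all 3 the groups did not overlap. Among tested genes 7.37% lay higher in every tamoxifen tumor, but that share covers only genes above the filter. In the limma fit with no filter on low values, the adjusted p was 0.0658 for Il1f9, 0.103 for Il1f6 and 0.161 for Il1f8, so none passed.

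The split of Il18 cut across treatment. The 4 tumors at 41.9 to 44.4 FPKM carry the 4 lowest sample identifiers, and the other 4 measured 15.8 to 20.9 FPKM, a 2.33-fold difference in mean. Among 14975 tested genes with no failed value, 7 separated the same tumors with a gap of at least 1.5-fold, and Il18 was 1 of 2 with a gap as large as its own 2.00-fold. The other 6 were predicted genes, a small nucleolar RNA and the vault RNA. These tumors were singled out by their Il18 level, so no test was made.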
